A study of Mus musculus with 12 samples.

Results

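Smooth muscle contractile genes were followed across 12 cultures of primary mouse keratinocytes, the epithelial cells of the epidermis. The 10 genes were Acta2, Actg2, Myl9, Myh11, Tagln, Cnn1, Tpm2, Lmod1, Des and Kcnmb1, each measured by 1 transcript cluster that carried its symbol alone, among 15868 genes tested. They were chosen by their role in smooth muscle contraction and, with results of these arrays already in view, on their measured log2 differences between the groups. Their group differences are therefore given as a description, without p-values for single genes of the 10. The counts of calls stand beside the share of all genes called and support nothing further.

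All cells were of the FVB/N strain, and total RNA of each sample was hybridised to 1 Affymetrix Mouse Gene 1.0 ST array. RAS cells were wild-type keratinocytes transduced for 3 days with v-rasHa, the viral oncogenic form of Hras. MT-HGF cells came from mice with a hepatocyte growth factor transgene, and MT stands for the metallothionein promoter that drives it. MT-HGF+AG1478 cells were mock transduced MT-HGF cells treated for 24 h with AG1478, an inhibitor of the EGF receptor kinase, in medium with 8% serum. WT cells were the wild-type controls, and each of the 4 groups had 3 arrays. For the first 9 arrays (RAS, MT-HGF and WT) the labels carry 1 shared note on RAS transduction and regular medium, so whether the WT and MT-HGF cells were mock transduced is not given. The AG1478 arrays were described with other extraction and labelling wording, and no vehicle-treated array was analysed here. Drug treatment, culture conditions and submission therefore cannot be told apart.

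Smooth muscle contracts when myosin pulls on actin filaments, a step switched on by phosphorylation of the regulatory myosin light chain. The genes of this apparatus are classical targets of serum response factor (SRF), which binds the CArG box and works with coactivators of the myocardin family, including the actin-sensing proteins Mrtfa and Mrtfb. Some of these genes, Acta2 and Tagln above all, are also known from myofibroblasts and from epithelial cells exposed to TGF-beta. The names of the genes therefore do not by themselves place the RNA in a muscle cell.

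The promoters of Myl9 and Acta2 are shown because both genes were lower on every RAS and MT-HGF array than on any WT array, and because both windows hold a CArG box or a near match. Lmod1 also met both conditions and is not shown. RefSeq sequence of GRCm38.p6 was at hand for 7 of the 10 genes. Myl9 is read from chr2:156775214-156775463, plus strand, and Acta2 from chr19:34255374-34255623, minus strand. Both runs are the 250 bases before the annotated start. The CArG boxes named in the next sentences are in capitals, save 1 near match in Myl9.
Myl9: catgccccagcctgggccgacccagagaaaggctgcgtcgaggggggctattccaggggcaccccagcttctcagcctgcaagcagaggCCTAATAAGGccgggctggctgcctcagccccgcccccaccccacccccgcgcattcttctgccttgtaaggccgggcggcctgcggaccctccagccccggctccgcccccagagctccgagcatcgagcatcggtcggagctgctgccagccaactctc
Acta2: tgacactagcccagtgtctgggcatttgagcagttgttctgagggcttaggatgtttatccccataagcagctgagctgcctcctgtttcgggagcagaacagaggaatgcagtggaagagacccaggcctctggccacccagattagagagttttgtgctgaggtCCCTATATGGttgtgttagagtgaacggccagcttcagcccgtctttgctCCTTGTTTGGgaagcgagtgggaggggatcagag
The Myl9 run holds an exact CArG box, CCTAATAAGG, at 161 to 152 bases before the start. It also holds a near match with 1 base different, CCTTGTAAGG at 99 to 90 bases, left in small letters. The Acta2 run holds 2 stretches that differ from the CArG box by 1 base, CCCTATATGG at 84 to 75 bases and CCTTGTTTGG at 34 to 25 bases before the start. Because the CArG box reads the same on both strands, 1 search covered both. Windows of 300 bases, from 250 before to 50 after the start, were searched for all promoters. An exact box was found in 1 of the 7 windows (14.3%) and in 1.63% of all 32851 windows. With 1 mismatch allowed, 3 of 7 windows had one (42.9%: Myl9, Acta2 and Lmod1), against 21.1% of all windows. These matches describe letters in a short window and say nothing about binding of SRF.

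The values are log2 RMA values, on which 1 unit is a 2-fold change. An array background was set at the 95th percentile of 162 genes of chemosensory receptors, which lay between 6.82 and 7.22 on the 12 arrays. Levels of different genes are not comparable, because each transcript cluster has its own probes. Acta2, Actg2, Myl9, Tagln and Tpm2 lay above the background on all 12 arrays. Cnn1, Kcnmb1 and Lmod1 did so on the 3 WT arrays alone, and Myh11 on 2 WT arrays alone. Des, the intermediate filament protein of muscle, lay above it on 0 of 12 arrays. In bulk RNA, fewer cells of a type and less RNA per cell cannot be told apart.

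Array medians ranged from 6.77 to 6.84, and each array's mean correlation with the others of its group was 0.993 to 0.997, so no array stood apart. The keratinocyte markers Krt5 and Krt14 were far above background in all groups. The mean level of 10 keratinocyte markers was 11.60 to 11.63 in RAS, 11.60 to 11.63 in MT-HGF, 11.66 to 11.71 in AG1478-treated and 11.58 to 11.60 in WT cells.

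Actg2, the enteric smooth muscle actin, had the largest difference of the 10 genes in RAS over WT, in MT-HGF over WT and in MT-HGF over RAS. Its values were 9.18, 9.37 and 9.01 in RAS cells, 7.90, 8.02 and 8.04 in MT-HGF cells, 8.08, 7.94 and 8.17 in MT-HGF+AG1478 cells, and 11.10, 11.30 and 11.32 in WT cells. The RAS arrays lay wholly below the WT arrays, and all 6 MT-HGF arrays, with or without AG1478, lay wholly below the RAS arrays. Actg2 was 4.14-fold lower in RAS than in WT cells (log2 difference -2.05 ± 0.092, SE) and 9.51-fold lower in MT-HGF than in WT cells (-3.25 ± 0.092). Its level was 24.1% of the WT level in RAS cells, 10.5% in MT-HGF cells and 11.1% in AG1478-treated cells.

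Acta2, the vascular smooth muscle actin and a widely used marker of myofibroblasts, had the same order of groups. It measured 11.20, 11.40 and 11.26 in RAS cells, 10.49, 10.63 and 10.58 in MT-HGF cells, 10.79, 10.69 and 10.77 in AG1478-treated cells, and 12.21, 12.45 and 12.37 in WT cells. No 2 groups overlapped. Acta2 was 2.08-fold lower in RAS than in WT cells (-1.05 ± 0.076) and 3.43-fold lower in MT-HGF than in WT cells (-1.78 ± 0.076). It stood at 48.2% of the WT level in RAS cells, 29.1% in MT-HGF cells and 33.1% in AG1478-treated cells.

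Myl9 encodes the regulatory light chain of smooth muscle and non-muscle myosin. Myl9 measured 9.88, 10.13 and 10.09 in RAS cells, 9.19, 9.38 and 9.54 in MT-HGF cells, 9.53, 9.36 and 9.60 in AG1478-treated cells, and 11.65, 11.87 and 11.89 in WT cells. The treated and untreated MT-HGF arrays overlapped, and both sets lay below the RAS arrays. Myl9 was 3.41-fold lower in RAS (-1.77 ± 0.099) and 5.40-fold lower in MT-HGF (-2.43 ± 0.099) than in WT cells.

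Tagln, or SM22, is an actin-binding protein of the calponin family. Its values were 9.05, 9.52 and 9.10 in RAS cells, 8.71, 8.69 and 8.81 in MT-HGF cells, 8.63, 8.45 and 8.55 in AG1478-treated cells, and 10.76, 10.62 and 10.75 in WT cells. The 3 RAS arrays spread over more of the scale (SD 0.26) than the arrays of the other groups (SD 0.064 to 0.090), yet none reached the WT or the MT-HGF arrays. Tagln was 2.80-fold lower in RAS (-1.49 ± 0.10) and 3.93-fold lower in MT-HGF (-1.97 ± 0.10) than in WT cells.

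Cnn1, calponin, binds actin and restrains the myosin motor in differentiated smooth muscle. Cnn1 measured 6.69, 6.54 and 6.55 in RAS cells, 6.51, 6.54 and 6.37 in MT-HGF cells, 6.54, 6.76 and 6.95 in AG1478-treated cells, and 7.73, 8.14 and 8.21 in WT cells. It was thus above the background in WT cells alone, and its differences are bounds: at least 2.05-fold lower in RAS, 2.12-fold in MT-HGF and 1.85-fold in AG1478-treated than in WT cells. A bound sets the WT mean against the background of the other group's arrays.

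Kcnmb1 encodes the beta subunit that tunes the large-conductance calcium-activated potassium channel of smooth muscle. Kcnmb1 had values of 6.40, 6.23 and 6.43 in RAS cells, 5.83, 5.81 and 5.77 in MT-HGF cells, 5.67, 5.74 and 5.93 in AG1478-treated cells, and 7.34, 7.88 and 7.82 in WT cells. It was at least 1.62-fold lower in RAS, 1.67-fold in MT-HGF and 1.46-fold in AG1478-treated than in WT cells. Kcnmb1 passed the filter on low values through its RAS and WT arrays alone, so the filter itself favoured a difference.

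Lmod1, a leiomodin that nucleates actin filaments, and Myh11, the smooth muscle myosin heavy chain, lay close to the background throughout. Lmod1 measured 6.78 to 6.95 in RAS cells, 6.59 to 6.87 in MT-HGF cells, 6.82 to 7.00 in AG1478-treated cells and 7.27 to 7.41 in WT cells. It was at least 1.26-fold lower in RAS, 1.30-fold in MT-HGF and 1.13-fold in AG1478-treated than in WT cells. Myh11 measured 6.56 to 6.73 in RAS cells, 6.51 to 6.66 in MT-HGF cells, 6.65 to 6.75 in AG1478-treated cells and 6.95 to 7.11 in WT cells. Its bounds were at least 1.03-fold in RAS and 1.06-fold in MT-HGF cells, and none could be given for AG1478-treated cells. Des measured 5.98 to 6.50 over all 12 arrays, and no difference is given for it.

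Tpm2, beta-tropomyosin, which lines the actin filament, followed another order. Tpm2 measured 9.58, 9.58 and 9.66 in RAS cells, 9.76, 9.89 and 9.97 in MT-HGF cells, 9.89, 9.84 and 9.77 in AG1478-treated cells, and 9.88, 10.05 and 10.07 in WT cells. The RAS arrays alone stood below the rest, while the MT-HGF, AG1478-treated and WT arrays overlapped. Tpm2 was 1.31-fold lower in RAS than in WT cells (-0.39 ± 0.074). In MT-HGF cells it differed from WT by -0.12, with a 95% interval of -0.28 to 0.03.

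**Figure D1:**
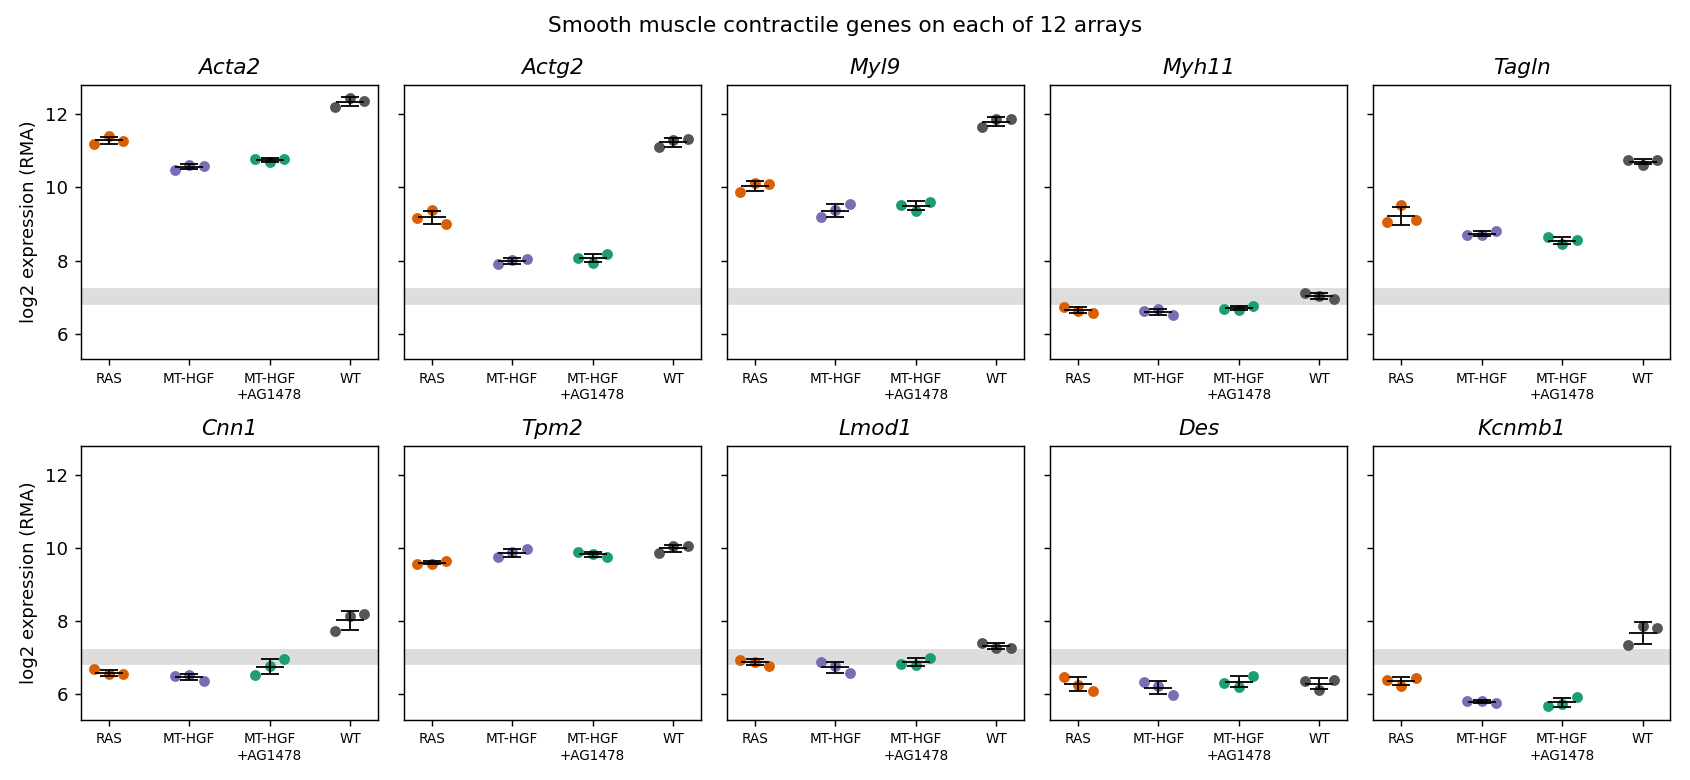
Log2 RMA value of each of the 10 genes on each of the 12 arrays, by group (RAS, MT-HGF, MT-HGF+AG1478, WT). Each point is 1 array, black bars are the group mean ± SD (n = 3), and the grey band spans the array backgrounds of 6.82 to 7.22. Actg2, Myl9, Tagln and Acta2 step down between WT, RAS and MT-HGF arrays, Tpm2 is lowest in RAS cells, and Des shows no separation, at 5.98 to 6.50 throughout.

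The first comparison asked which of the genes differed after transduction of v-rasHa. A gene was called where limma's Benjamini-Hochberg adjusted p over all 15868 genes was under 0.05. In RAS over WT, 9 of the 10 genes were called lower and 0 higher, Des being the exception. Of all genes 19.9% were called lower and 12.6% higher. The median log2 difference of the 10 genes was -1.19, that of all genes -0.02. With the 4 genes near background at their bounds and Des left out, the median was -1.04. At least 2-fold lower by the fitted difference were 6 of the 10 genes, against 0.637% of all genes. Kcnmb1 is among these 6, although its bound is under 2-fold.

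For MT-HGF over WT, the comparison of transgenic with wild-type cells, 8 of the 10 genes were called lower and 0 higher, Tpm2 and Des being the others. Of all genes 23.9% were called lower and 17.1% higher. The median was -1.67 for the 10 genes and -0.03 for all genes, and -1.08 over 9 genes with bounds. At least 2-fold lower by the fitted difference were 6 genes, Kcnmb1 again among them, against 1.19% of all genes. Because the RAS and MT-HGF comparisons share the WT arrays, their likeness is not a result of its own.

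The direct comparison of MT-HGF with RAS cells uses no WT array. Here 5 of the 10 genes were called lower (Actg2, Myl9, Tagln, Acta2 and Kcnmb1) and 1 higher (Tpm2), where 12.6% of all genes were called lower and 13.4% higher. Actg2 was 2.30-fold lower in MT-HGF than in RAS cells (-1.20), Acta2 1.65-fold (-0.72), Myl9 1.58-fold (-0.66) and Tagln 1.40-fold (-0.49). Kcnmb1 was not above background on any of these 6 arrays, so no fold is given. Tpm2 was higher in MT-HGF than in RAS cells by 0.27, with a 95% interval of 0.11 to 0.42. That call was lost when RAS replicate 2, MT-HGF replicate 2 or MT-HGF replicate 3 was left out, which left 0 genes called higher. Over the 5 genes above background on all arrays the median was -0.66, that of all genes -0.02.

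**Figure D2:**
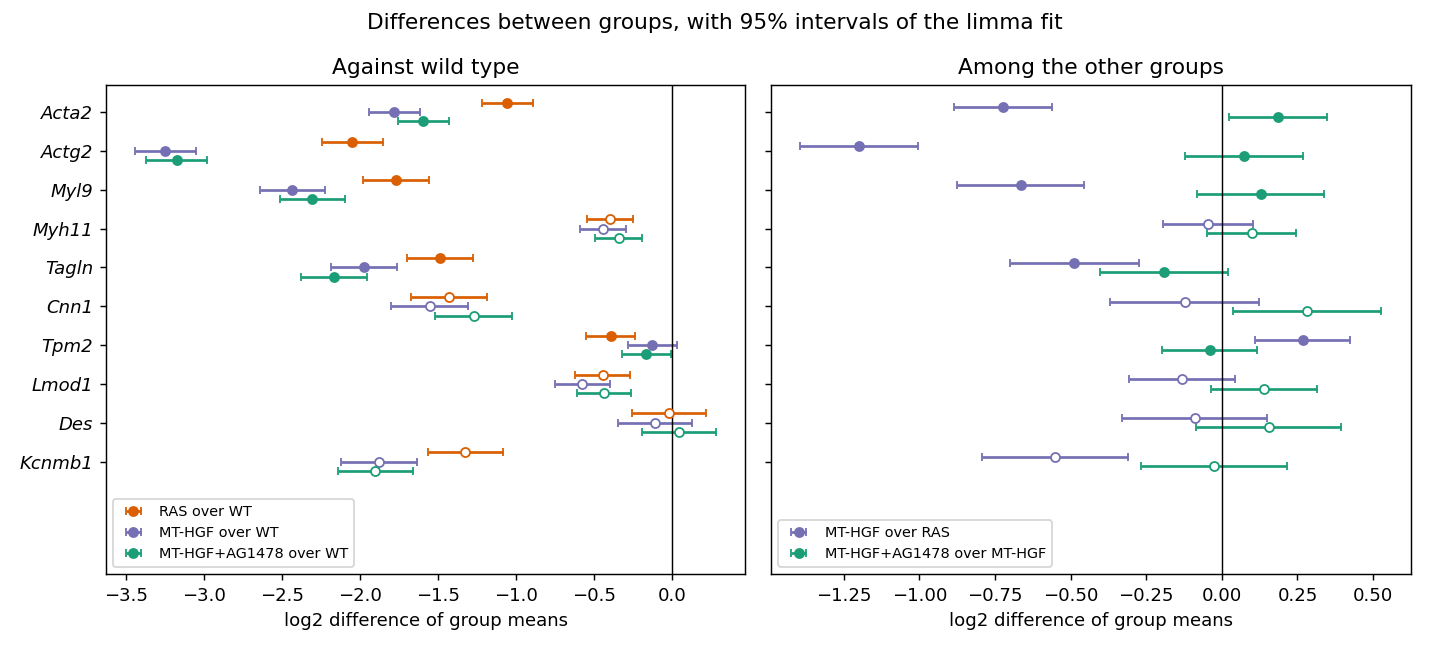
Log2 difference of group means, with 95% intervals from limma's moderated fit, for the 10 genes in the comparisons of RAS, MT-HGF and MT-HGF+AG1478 cells. Open markers show differences in which a group was not above the array background. The values of Actg2, -2.05 in RAS over WT and -3.25 in MT-HGF over WT, lie farthest from 0 within each of those comparisons.

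AG1478-treated over untreated MT-HGF cells, where drug, culture and submission cannot be told apart, gave no call among the genes. By limma 0 of 10 genes were called in either direction, against 9.91% of all genes called lower and 6.57% higher. Against such shares, 0 of 10 says little about these genes. Cnn1, Kcnmb1, Lmod1, Myh11 and Des were not above background on any of these arrays, so no interval is given for them. The 95% intervals of AG1478-treated over untreated cells were -0.12 to 0.27 for Actg2, -0.08 to 0.34 for Myl9, -0.40 to 0.02 for Tagln and -0.20 to 0.12 for Tpm2. Acta2 was higher by 0.19 (0.02 to 0.35), with all 3 treated arrays above the 3 untreated ones. Tagln lay the other way, with all 3 treated arrays below.

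Set against WT cells, the AG1478-treated cells had 8 of 10 genes called lower and 0 higher, with 26.2% of all genes lower and 16.8% higher. Myh11 is among the 8, although no bound could be given for it. Actg2 was 9.03-fold lower (-3.18), Myl9 4.94-fold, Tagln 4.48-fold and Acta2 3.02-fold. Set against RAS cells, 5 genes were called lower and 1 higher, again Tpm2 (0.23), with 20.4% of all genes lower and 16.3% higher. Kcnmb1, among these 5, was not above background on any array of either group. The Tpm2 call was lost without RAS replicate 1 or 2 or AG1478 replicate 1 or 2. Both comparisons, like that with untreated MT-HGF cells, carry the difference in culture and submission described at the start.

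Several of the genes have close relatives that non-muscle cells use, which were picked for display after their values were seen. Actb, the cytoplasmic actin, differed by -0.02 in RAS (95% interval -0.14 to 0.10) and by -0.03 in MT-HGF cells (-0.15 to 0.09) from WT cells, and was not called. Acta1, the skeletal muscle actin, was not called in RAS over WT (-0.17) and rose by 0.16 in MT-HGF cells (adjusted p 0.0468). Actin coding sequences are near copies of one another, so single actin clusters may share signal. The regulatory light chains Myl12a and Myl12b, which serve non-muscle myosin, were not called in RAS over WT (-0.04 and 0.00) and rose in MT-HGF over WT, Myl12a by 0.19 and Myl12b by 0.67 (adjusted p 6.62e-07 for Myl12b). Myl9 was lower in both comparisons.

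Tagln2 (-0.13 in RAS and -0.10 in MT-HGF over WT) and the calponin Cnn2 (-0.16 and -0.11) were called in neither comparison. Cnn3 fell by 0.19 in MT-HGF over WT. Of the non-muscle myosin heavy chains, Myh9 (-0.18) and Myh10 (-0.34) fell in MT-HGF over WT, and neither was called in RAS over WT. The tropomyosins split another way. Tpm1 fell in RAS (-0.46) and in MT-HGF cells (-0.65) over WT, Tpm3 rose by 0.20 in RAS over WT, and Tpm4 was called in neither. Tpm1 also rose by 0.23 after AG1478 (adjusted p 0.0216). The difference between a gene and its relative was not tested.

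**Figure D3:**
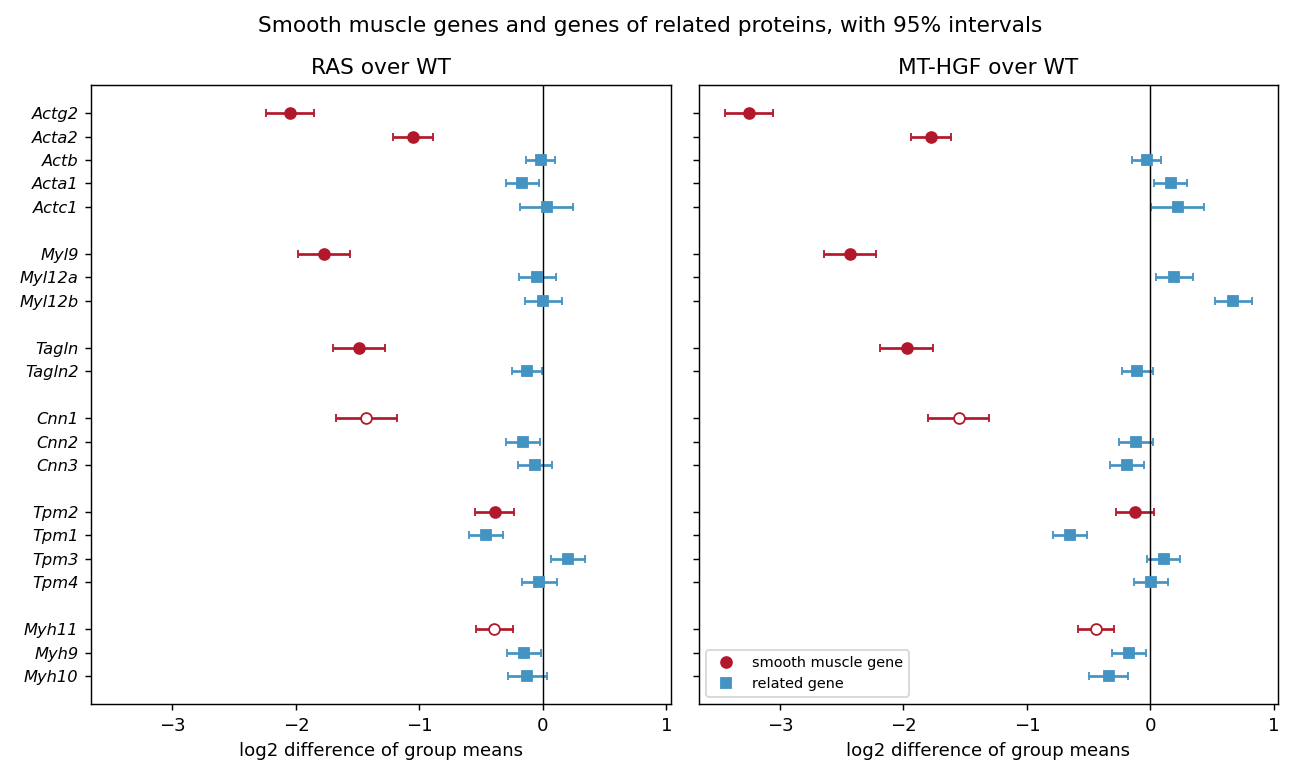
Log2 differences, with 95% intervals, of smooth muscle genes (red circles) and their relatives used outside smooth muscle (blue squares) in RAS over WT and in MT-HGF over WT cells. Open markers show a group not above the array background. Acta2 lies at -1.05 and -1.78, Actb at -0.02 and -0.03, and Myl12b at 0.00 and 0.67.

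SRF itself was not called. Srf differed by -0.11 in RAS (95% interval -0.24 to 0.02) and by -0.12 in MT-HGF over WT cells (-0.25 to 0.00). Its coactivator Mrtfa fell by 0.79 in RAS over WT (adjusted p 3.23e-06) and fell by 0.77 in MT-HGF over WT (adjusted p 3.05e-06). In MT-HGF over RAS cells Mrtfa differed by 0.02 (-0.17 to 0.21). Mrtfb fell in RAS and in MT-HGF over WT (-0.29 and -0.35), and Myocd, the myocardin of muscle, was not above background on any array. These are RNA levels, and the activity of the proteins was not measured. Their part in the differences of the smooth muscle genes was not tested.

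The list of SRF, its coactivators, partners and antagonists had 22 measured genes, of which 7 fell and 4 rose in RAS over WT and 9 fell and 2 rose in MT-HGF over WT. Its medians were -0.08 in both comparisons. Of all genes 19.9% were called lower and 12.6% higher in RAS over WT, and 23.9% and 17.1% in MT-HGF over WT. Fhl1, a LIM-domain protein, fell in RAS (-1.15) and in MT-HGF cells (-2.04) over WT. It also fell by 0.89 in MT-HGF over RAS (adjusted p 6.29e-07). Tgfb1i1, the focal adhesion protein Hic-5, fell in RAS over WT (-1.17), in MT-HGF over WT (-1.52) and in MT-HGF over RAS (-0.34). Elk3, a ternary complex factor that shares SRF with the myocardin family, rose by 0.40 in RAS and by 0.93 in MT-HGF over WT, and by 0.53 in MT-HGF over RAS.

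Beyond the 10 genes, 26 other genes of the smooth muscle contractile apparatus were measured. Of these 11 fell and 1 rose in RAS over WT, and 13 fell and 3 rose in MT-HGF over WT, with medians of -0.16 and -0.19. Tns1, a tensin of actin anchorage, fell in RAS (-0.79) and in MT-HGF cells (-0.97) over WT, as did Lpp, a LIM protein of focal adhesions (-0.56 and -0.81), and Csrp1 (-0.54 and -0.79). Among 21 measured cytoskeletal and matricellular SRF targets, 6 fell and 1 rose in RAS over WT, and 13 fell and 0 rose in MT-HGF over WT. Beside the counts of both lists, 19.9% of all genes were called lower and 12.6% higher in RAS over WT. For MT-HGF over WT these shares were 23.9% and 17.1%. The secreted protein Ccn2 fell in RAS (-1.31) and in MT-HGF cells (-1.78) over WT, and so did Zyx, zyxin (-0.38 and -0.73).

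The ligand Tgfb3 fell in RAS over WT (-1.97), in MT-HGF over WT (-2.67) and in MT-HGF over RAS (-0.70). Tgfb2 was above background on the 3 WT arrays alone. Its mean levels were 6.72 in RAS, 6.53 in MT-HGF, 6.72 in AG1478-treated and 7.60 in WT cells. Tgfb1 was not called in RAS over WT (0.21) and rose by 0.48 in MT-HGF over WT. Of 13 measured TGF-beta ligands, receptors and Smads, 4 fell and 1 rose in RAS over WT, and 4 fell and 4 rose in MT-HGF over WT. The shares of all genes called lower and higher were 19.9% and 12.6% in RAS over WT. In MT-HGF over WT they were 23.9% and 17.1%.

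**Figure D4:**
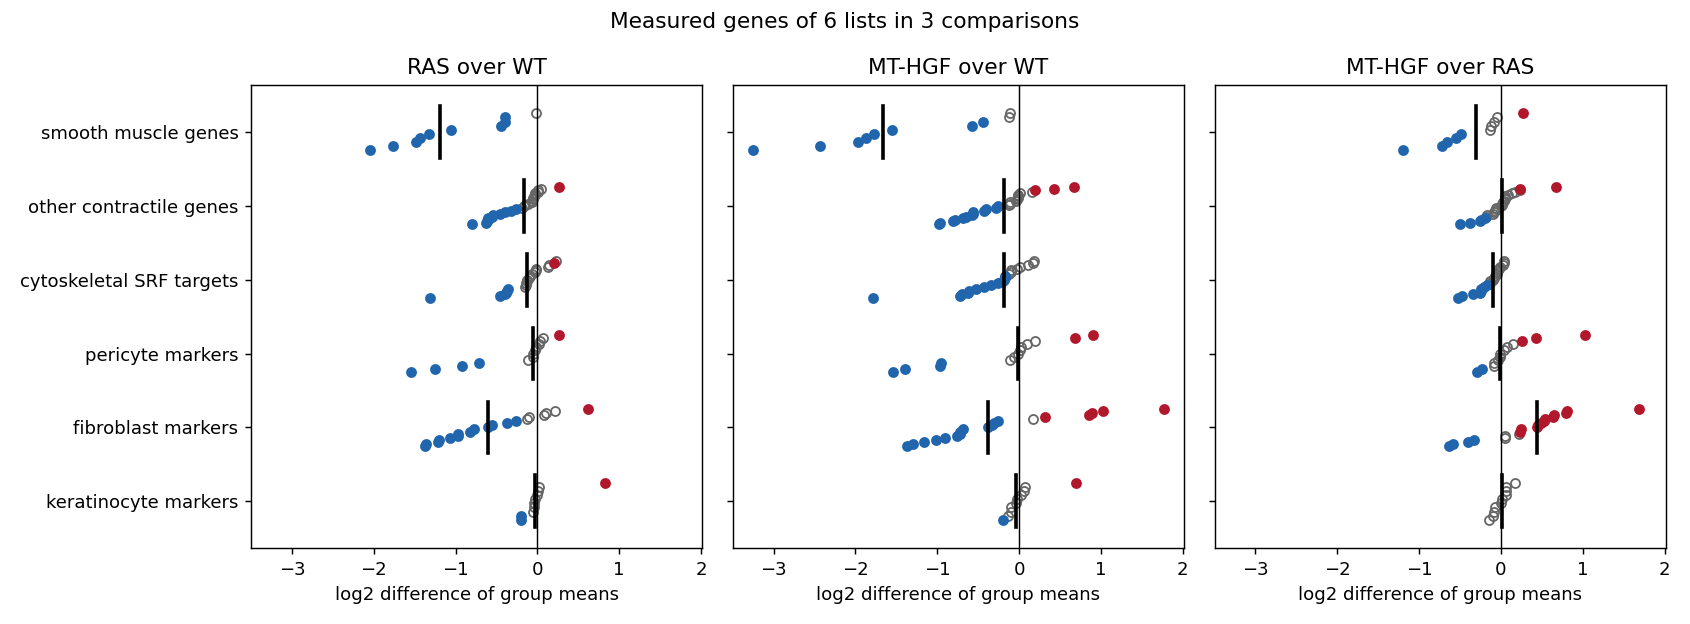
Log2 differences of single genes, 1 point each, in the 10 genes and the lists of related pathways and cell types. Filled blue points were called lower, filled red points called higher, open points not called, and the black bar is the list's median. The 10 genes have medians of -1.19 in RAS over WT and -1.67 in MT-HGF over WT, and the other contractile genes -0.16 and -0.19. Because the 10 genes were chosen also on these measured differences, the distance between the medians is not a result.

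Markers of fibroblasts, cells that can also carry smooth muscle genes, fell more often than they rose against WT cells. In MT-HGF over RAS cells they rose more often than they fell. Of 19 measured fibroblast markers, 13 fell and 1 rose in RAS over WT (median -0.60), and 13 fell and 5 rose in MT-HGF over WT (median -0.37). Their mean level was 8.43 to 8.45 in RAS, 8.69 to 8.79 in MT-HGF, 8.67 to 8.77 in AG1478-treated and 8.98 to 9.02 in WT cells. Of these 19 markers, 17 were above background on all 3 arrays in RAS, 18 in MT-HGF, 18 in AG1478-treated and 18 in WT cells, and the 1 marker never above it was Lum. In MT-HGF over RAS 4 fibroblast markers fell and 12 rose (median 0.44), where 5 of the 10 smooth muscle genes were called lower. Col1a1 fell by 1.37 in RAS over WT and rose by 0.65 in MT-HGF over RAS. Dcn rose by 1.69 and Prrx1 fell by 0.40 in MT-HGF over RAS. Prrx1 had mean levels of 9.66 in RAS, 9.26 in MT-HGF, 8.96 in AG1478-treated and 10.63 in WT cells. S100a4 had 7.90 in RAS, 7.57 in MT-HGF, 7.44 in AG1478-treated and 8.87 in WT cells. Thy1 had 7.53, 7.58, 7.55 and 8.75 in the same order. Dcn lay the other way, at 8.63, 10.32, 10.11 and 8.55.

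Of 13 measured pericyte and mural cell markers, which include Des, 4 fell and 1 rose in RAS over WT (median -0.05). In MT-HGF over WT 4 fell and 2 rose (median -0.02). Of all genes 19.9% were called lower and 12.6% higher in the first comparison, and 23.9% and 17.1% in the second. Mcam (-1.25 and -1.54) and Itga8 (-1.54 and -1.39) fell in both. Their mean level was 6.98 to 7.11 in RAS, 7.12 to 7.15 in MT-HGF, 7.12 to 7.27 in AG1478-treated and 7.34 to 7.39 in WT cells. Above background on all 3 arrays were 4 of the 13 markers in RAS, 5 in MT-HGF, 4 in AG1478-treated and 6 in WT cells. Tbx18, a transcription factor of mural cells, was above it on the 3 WT arrays alone, as Cnn1, Kcnmb1 and Lmod1 were. Its mean levels were 6.53 in RAS, 6.29 in MT-HGF, 6.18 in AG1478-treated and 7.24 in WT cells. Cspg4, the NG2 proteoglycan of pericytes, had mean levels of 6.98 in RAS, 6.94 in MT-HGF, 7.01 in AG1478-treated and 7.90 in WT cells. It was above background on all 3 WT arrays. Notch3 and Ndufa4l2 lay the other way, higher in MT-HGF than in WT cells. Notch3 had mean levels of 7.85 in RAS, 8.28 in MT-HGF, 8.58 in AG1478-treated and 7.59 in WT cells. Ndufa4l2 had 6.51 in RAS, 7.54 in MT-HGF, 7.84 in AG1478-treated and 6.63 in WT cells. Ndufa4l2 was above background on all 3 MT-HGF and all 3 AG1478-treated arrays, and on no RAS or WT array. Abcc9, Kcnj8, Vtn, Nkx2-3 and Des were not above background on any array. The part of fibroblasts and mural cells in the differences of the smooth muscle genes was not tested.

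The genes most like the smooth muscle genes were ranked by Pearson correlation with the mean centred profile of the 8 genes that reached above background on all 3 arrays of a group. Of these, Cnn1, Kcnmb1 and Lmod1 qualified through the WT arrays alone, so the profile itself favoured genes high in WT cells. The ranking ran over 12 arrays and 981 genes that spanned at least 1 log2 unit. The arrays fall into 4 groups, so the correlations mainly reflect group means and carry no p. The profile lay at -0.14 to -0.04 in RAS, -0.59 to -0.53 in MT-HGF, -0.55 to -0.41 in AG1478-treated and 1.01 to 1.21 in WT cells. The nearest genes were Sv2c (r 0.996), Tgfb3 and Tgfb1i1 (both 0.995), Tnfrsf11b, Ccdc80, Ccn2 and Ccn4 (all 0.993) and Pakap (0.992). Sv2c, a synaptic vesicle protein, was above background in WT cells alone, and its bounds were log2 differences of -0.51 in RAS and -0.55 in MT-HGF over WT cells. Tnfrsf11b, osteoprotegerin, a secreted decoy receptor, differed by -0.92 in RAS over WT. Ccdc80, a secreted matrix protein, had mean levels of 7.91 in RAS, 7.22 in MT-HGF, 7.27 in AG1478-treated and 10.58 in WT cells. Ccn4, a secreted relative of Ccn2, had 8.32 in RAS, 7.96 in MT-HGF, 7.97 in AG1478-treated and 10.21 in WT cells.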

How the data were processed

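The authors deposited RMA values on the log2 scale, per the submitters' processing notes. No version of RMA is given in the sources used here, and neither is the number of runs. The file held 35511 transcript clusters, of which the platform annotation gave 21789 a single symbol and 1621 several, while 12101 were unnamed here. By Entrez ID 21698 matched current records, which changed 0 symbols. Groups came from the sample titles and sources. The series' design text names 3 conditions and the labels 4, and the labels were followed. For the RAS, MT-HGF and WT arrays the titles say biological replicates, but separate animals or cultures are not stated, so the p-values measure only spread among arrays, which may be technical. The number of arrays limits the precision.

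Clusters above their array's 30th percentile on at least 3 arrays were kept. A gene with several took the cluster with the highest mean. Groups were compared with limma (version 3.58.1, R 4.3.3, and the package data.table, version 1.17.8) in 1 fit over 12 arrays, with 8 residual and 8.02 prior degrees of freedom, two-sided p-values and Benjamini-Hochberg adjustment over 15868 genes in each of 6 comparisons. The fit was tested on simulated data. Figures were drawn with matplotlib 3.10.9 in Python 3.11.15.

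A difference became a bound where the lower group was not above background on any of its 3 arrays, and none is given where neither group was. Alternatives changed the filter, arrays in the fit, replicate block, normalization, variance model, cluster choice and array weights, and left out each array in turn.

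The members and lists were chosen with earlier results of these data known. The text names all 10 genes, in each list up to 4 called genes with the largest difference in MT-HGF over WT (for the SRF list also others above background), and the 8 genes most alike in profile. The relatives used in non-muscle cells were picked after their values were seen. So were Tpm1, Col1a1, Notch3, Ndufa4l2 and Fcer1g where named beyond that rule. Some genes within the rule, such as Rnd3, Nexn and Trpc6, were left out above.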

Additional observations from a re-analysis of the deposited data

How the results depend on the processing

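No called difference of the 10 genes in the 6 comparisons turned its direction under the alternatives run. Some uncalled differences near 0 changed sign: those of Des in RAS over WT, MT-HGF over RAS and AG1478-treated over WT and over RAS, of Lmod1 in AG1478-treated over RAS, and of Kcnmb1 and Tpm2 after AG1478. Of the gene differences outside the leave-one-out fits, 559 stayed on their side of the threshold, 4 newly passed it and 1 no longer did; with single arrays left out these counts were 710, 3 and 7. With the stricter filter, above the array median on at least 3 arrays, 9 genes passed and their medians were -1.32 in RAS over WT, -1.78 in MT-HGF over WT, -0.49 in MT-HGF over RAS, -1.59 in AG1478-treated over WT and -0.54 in AG1478-treated over RAS, because 1 gene fewer entered. With arrays centred on their medians 0 genes were called higher in AG1478-treated over RAS cells, the call of Tpm2 (0.21) being lost. With quantile normalization 1 gene, Acta2, was called higher after AG1478. Array weights gave 8096 genes called in RAS over WT and 3925 after AG1478, against 5158 and 2615, called 1 of the 10 genes higher after AG1478, and gave medians of -1.74 in MT-HGF over WT and -1.58 in AG1478-treated over WT; the cause was not tested. Tpm2 was then called lower (-0.18) in both of these comparisons.

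Leaving out each array in turn gave 9, 8 and 5 genes called lower in RAS over WT, MT-HGF over WT and MT-HGF over RAS, 0 after AG1478, 8 to 9 in AG1478-treated over WT and 5 in AG1478-treated over RAS. Genes called higher numbered 0 to 1 in MT-HGF over RAS, after AG1478 (1 without WT replicate 1 or AG1478 replicate 1) and in AG1478-treated over RAS. Medians ranged from -1.29 to -1.11 in RAS over WT, -1.77 to -1.61 in MT-HGF over WT, -0.35 to -0.24 in MT-HGF over RAS, 0.06 to 0.15 after AG1478, -1.54 to -1.38 in AG1478-treated over WT and -0.30 to -0.21 in AG1478-treated over RAS.

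Replicate numbers did not pair the arrays throughout. Same-numbered arrays correlated at -0.44 to 0.53, and 7 of 18 pairs were over 0.1. Among RAS, MT-HGF and WT arrays 6 of 9 pairs were: those of replicates 1 and 3, at 0.27 to 0.53, while those of replicate 2 lay at -0.24 to 0.087. Of 9 pairs with an AG1478 array, 1 was over 0.1. Of the 12 arrays, 5 correlated best with their own number. With the replicate block the counts of the 10 genes were the same (9, 8, 5 and 1, 0, 8, 5 and 1), and 5262 genes were called in RAS over WT, 6558 in MT-HGF over WT, 4254 in MT-HGF over RAS, 2708 after AG1478, 6959 in AG1478-treated over WT and 5931 in AG1478-treated over RAS. A fit without the AG1478 arrays, chosen after seeing the data, left the counts at 9, 8, and 5 lower with 1 higher.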

Other observations

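Genes named for other muscle or for smooth muscle signalling did not all lie below WT levels. Of 30 measured skeletal and cardiac muscle genes, 0 fell and 2 rose in RAS over WT, and 0 fell and 5 rose in MT-HGF over WT. Of all genes 19.9% were called lower and 12.6% higher in RAS over WT, and 23.9% and 17.1% in MT-HGF over WT. Not above background on any array of the group were 22 of the 30 genes in RAS, 21 in MT-HGF and 20 in WT cells. A fall could hardly be seen in such genes. Tnnt2, cardiac troponin T, rose by 1.33 in RAS and by 1.27 in MT-HGF over WT, and fell by 0.64 after AG1478 (adjusted p 2.5e-05). Myl7, the atrial regulatory light chain, rose by 0.48 in RAS and by 0.50 in MT-HGF over WT, where its relative Myl9 was lower.

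Of 13 measured genes for smooth muscle channels, receptors and cyclic GMP signalling, 5 fell and 1 rose both in RAS and in MT-HGF over WT. These counts stand beside the same shares of all genes as those of the skeletal and cardiac list. On no array of the group above background were 10 of the 13 in RAS, 10 in MT-HGF and 9 in WT cells. Rgs2, an inhibitor of Gq signalling known for relaxing vascular smooth muscle, was higher by at least 1.25 log2 units in RAS and at least 1.68 in MT-HGF over WT, where WT cells were not above background. Rgs2 fell by 0.82 in AG1478-treated over untreated MT-HGF cells (adjusted p 0.000105), a comparison in which 0 of the 10 contractile genes were called. Ednrb, an endothelin receptor that melanocytes also use, fell in RAS (-0.66) and in MT-HGF cells (-0.91) over WT.

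Of 10 keratinocyte markers, 2 fell and 1 rose in RAS over WT, and 1 fell and 1 rose in MT-HGF over WT. Of 11 melanocyte markers, 1 fell and 0 rose in RAS over WT, and 8 fell and 0 rose in MT-HGF over WT. Mlana fell by 0.79 in MT-HGF over WT. Of 9 measured leukocyte markers, 4 fell and 1 rose in RAS over WT, and 5 fell and 1 rose in MT-HGF over WT. Lyz2 and Fcer1g were above background on the 3 WT arrays alone, and Tyrobp on 2 WT arrays alone. Lyz2 had mean levels of 6.03 in RAS, 5.70 in MT-HGF, 5.51 in AG1478-treated and 7.69 in WT cells. Cd68 lay the other way, at 10.25 in RAS, 10.24 in MT-HGF, 10.08 in AG1478-treated and 8.96 in WT cells. Ptprc was not above background on any array. Of 9 measured endothelial markers, 2 fell and 1 rose in each of these comparisons. On no array of the group above background were 7 of the 9 in RAS, 8 in MT-HGF and 7 in WT cells. Eng alone was above it on all arrays. Beside all counts of this paragraph, 19.9% of all genes were called lower and 12.6% higher in RAS over WT. In MT-HGF over WT these shares were 23.9% and 17.1%.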
